A study of Mus musculus with 6 samples.

Results

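The thin filament of striated muscle was examined through 10 genes, which encode its troponins (Tnnt1, Tnnt3, Tnni1, Tnni2, Tnnc1, Tnnc2), its tropomyosins (Tpm1, Tpm2, Tpm3) and its skeletal actin (Acta1). They were taken by name, as the probe sets whose single gene symbol in the platform annotation is one of these 10, and not by a threshold on their values. That gave 13 probe sets out of 35557 on the array and 10 genes out of the 19938 tested, with 4 probe sets for Tpm3 and 1 for every other gene. The arrays were Affymetrix MoGene arrays of total RNA from frozen mouse skeletal muscle, and the series title names SOCS-3. They came from 3 mice labelled transgenic (TG) and 3 mice labelled wild type (WT), each a separate subject. The sources used here do not give what the transgene carries or the promoter that drives it, nor the muscle, strain, age or sex.

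The thin filament is a double strand of actin with tropomyosin lying along it and a troponin complex at regular intervals. Troponin C binds calcium, troponin I holds the filament in its inhibited state at rest, and troponin T ties the complex to tropomyosin. Calcium binding to troponin C lets tropomyosin move and opens the myosin sites on actin. Slow and fast fibres build this switch from different genes: Tnnt1, Tnni1, Tnnc1 and Tpm3 in slow fibres, and Tnnt3, Tnni2, Tnnc2 and Tpm1 in fast fibres. Tpm2, the beta tropomyosin, and Acta1 serve both fibre types.

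None of the 10 genes passed the test between TG and WT muscle, in either direction. The largest difference was that of slow troponin T, Tnnt1, with log2 levels of 6.79 ± 0.12 in TG muscle and 7.00 ± 0.08 in WT muscle (mean and SD over 3 arrays each), a ratio of 0.864. The fast troponins, the fast tropomyosin Tpm1 and Acta1 differed by less than 0.05 log2 units. The deposited values are log2 expression levels, and a difference is TG minus WT on that scale. A change was called at an adjusted p under 0.05 (limma, Benjamini-Hochberg over all 19938 genes). By that rule 1 gene of all those tested was called, or 0.00502%, against 0 of the 10 thin filament genes. Each array is 1 mouse, the 3 arrays per group limit the precision, and in whole muscle fewer fibres of a type and less RNA per fibre cannot be told apart.

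Array medians lay between 5.98 and 6.04, and the 10 skeletal muscle markers looked at, among them Ckm, Ttn, Ryr1 and Actn3, were high on every array, with a summed level (the log2 of the sum of the linear values) of 17.10 to 17.11 in TG and in WT. No array stood apart by its correlation with the others (0.9947 to 0.9959 within groups and 0.9943 to 0.9960 between groups, across genes, which are not independent replicates).

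The genes' start regions in RefSeq's GRCm38.p6 promoter table are shown so that slow and fast forms can be set side by side on a feature the arrays do not measure. Of the 10 genes, 8 matched the table. The 250 bases before the start are printed for slow troponin T, for the slow and fast troponin C genes and for skeletal actin, 5′ to 3′ on the gene's own strand. Capitals mark matches to 5 motifs: the E-box CANNTG, the MCAT box CATTCC on either strand, the TATA box TATAAA on the gene's strand, and the CArG box and MEF2 site, which are known as binding motifs of serum response factor and MEF2. The E-box, CArG and MEF2 patterns were searched so that a match on one strand is found on both.
Tnnt1, chr7:4515976-4516225, minus strand: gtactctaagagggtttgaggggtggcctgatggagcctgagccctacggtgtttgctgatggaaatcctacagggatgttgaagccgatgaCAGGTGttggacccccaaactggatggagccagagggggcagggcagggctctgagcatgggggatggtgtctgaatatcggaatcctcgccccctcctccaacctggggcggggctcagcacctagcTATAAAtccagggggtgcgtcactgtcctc
Tnnc1, chr14:31208062-31208311, plus strand: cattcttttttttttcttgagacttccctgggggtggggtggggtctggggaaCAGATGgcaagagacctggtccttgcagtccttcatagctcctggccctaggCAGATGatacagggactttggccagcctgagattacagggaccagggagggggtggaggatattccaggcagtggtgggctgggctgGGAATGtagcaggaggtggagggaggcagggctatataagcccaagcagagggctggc
Tnnc2, chr2:164779735-164779984, minus strand: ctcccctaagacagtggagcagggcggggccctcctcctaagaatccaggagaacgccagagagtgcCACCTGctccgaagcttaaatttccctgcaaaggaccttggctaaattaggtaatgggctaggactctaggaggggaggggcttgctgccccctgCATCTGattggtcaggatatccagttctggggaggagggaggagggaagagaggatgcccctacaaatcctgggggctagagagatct
Acta1, chr8:123894776-123895025, minus strand: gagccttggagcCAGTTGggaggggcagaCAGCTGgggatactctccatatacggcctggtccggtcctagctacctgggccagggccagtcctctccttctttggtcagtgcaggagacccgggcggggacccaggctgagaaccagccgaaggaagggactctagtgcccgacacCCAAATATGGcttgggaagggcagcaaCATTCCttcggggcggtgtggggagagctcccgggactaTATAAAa

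All 8 matched genes held an E-box in the first window listed for them, a motif that 66.2% of the 32851 windows in the table hold. An MCAT box stood in 3 of the 8 (Tnnc1, Tpm1 and Acta1), against 12.6% of all windows. The exact letters TATAAA stood in 2 of the 8 (Tnnt1 and Acta1), against 7.59%. Variants of the TATA box were not searched, so a gene without a match, such as Tnnc1, may still have one. The CArG box of Acta1, 73 to 64 bases before the start, was the 1 match among the 8, against 1.47% of all windows. No MEF2 match lay in these windows, where 1.69% of all windows have 1. Windows of Tnnt3 and Tnni2 were not used here, so slow and fast forms were compared for troponin C and tropomyosin alone. Tnnc1 and Tnnc2 each had 2 E-boxes, and the MCAT box was in slow Tnnc1 and in fast Tpm1. These are matches of letters and not measured binding.

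Among the slow troponins, Tnnt1 read 6.90, 6.66 and 6.81 on TG arrays 1, 2 and 3, against 6.91, 7.06 and 7.03 on WT arrays 1, 2 and 3. All TG readings lay below all WT readings, although TG array 1 and WT array 1 nearly met. The difference was -0.21 (SE 0.08, 95% interval -0.41 to -0.013; limma, unadjusted p = 0.0396, adjusted p = 0.738). Of the 10 thin filament genes, 1, Tnnt1, had an unadjusted p under 0.05, against 6.75% of all genes. The share of all genes was 4.79% with TG lower and 1.96% with TG higher. The unadjusted p ranged from 0.0221 to 0.134 when each array was left out in turn, with the highest without TG array 2, and the adjusted p from 0.647 to 0.937.

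Tnni1, the slow inhibitory subunit, read 6.22, 6.18 and 6.01 on the TG arrays, against 6.26, 6.21 and 6.41 on the WT arrays. These readings lay near the array medians of 5.98 to 6.04, which limits what they show of slow fibre transcript. The groups overlapped, with TG array 3 lowest and WT array 3 highest. The difference was -0.15 (SE 0.09, 95% interval -0.36 to 0.049; limma, adjusted p = 0.791), and -0.091 without TG array 3 or -0.096 without WT array 3. Tnnc1, the slow calcium sensor, which heart muscle also uses, read 7.68, 7.68 and 7.57 in TG and 7.72, 7.89 and 7.54 in WT. Here both the highest and the lowest reading were WT arrays, and the difference of -0.075 (SE 0.10; limma, adjusted p = 0.894) was smaller than the WT spread of 0.17 (SD, n = 3). The 3 slow troponins did not order the arrays alike, since the lowest array was TG array 2 for Tnnt1, TG array 3 for Tnni1 and WT array 3 for Tnnc1.

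The fast troponins gave readings near the top of the deposited scale, which ends at 15.1, and differed little between arrays. Tnnt3, fast troponin T, read 13.96, 13.92 and 13.90 in TG and 13.94, 13.96 and 13.93 in WT, a difference of -0.015 (95% interval -0.16 to 0.13). Tnnc2, the fast calcium sensor, read 13.88, 13.89 and 13.91 in TG and 13.93, 13.90 and 13.96 in WT, a difference of -0.033 (95% interval -0.17 to 0.11). For both genes the groups overlapped. Tnni2, fast troponin I, read 13.84, 13.73 and 13.82 in TG, against 13.85, 13.84 and 13.84 in WT. Its groups did not overlap, with TG array 1 almost touching the lowest WT array, and the difference was -0.046 (95% interval -0.20 to 0.10; limma, adjusted p = 0.901), or -0.013 without TG array 2. Whether readings this close to the top of the scale are compressed was not tested, because probe intensities were not used here.

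Groups that did not overlap with TG lower were seen for 2 of the 10 genes, Tnnt1 and Tnni2, against 7.76% of all genes, and with TG higher for 0 of the 10, against 4.52%. The differences of the 10 genes had a median of -0.030 and ranged from -0.21 to 0.048, beside a median of -0.016 over all genes. Of the 10, 9 lay below 0 and 1 above it, against 56.2% and 43.8% of all genes. With the arrays set to a common median, where the median over all genes was 0.0035, 6 of the 10 lay below 0, and Tnnt3, Tpm1 and Acta1 changed sign. Among genes above the median level, which leaves out Tnni1, the median over genes was 0.0061, and 8 of 9 members lay below 0.

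**Figure D1:**
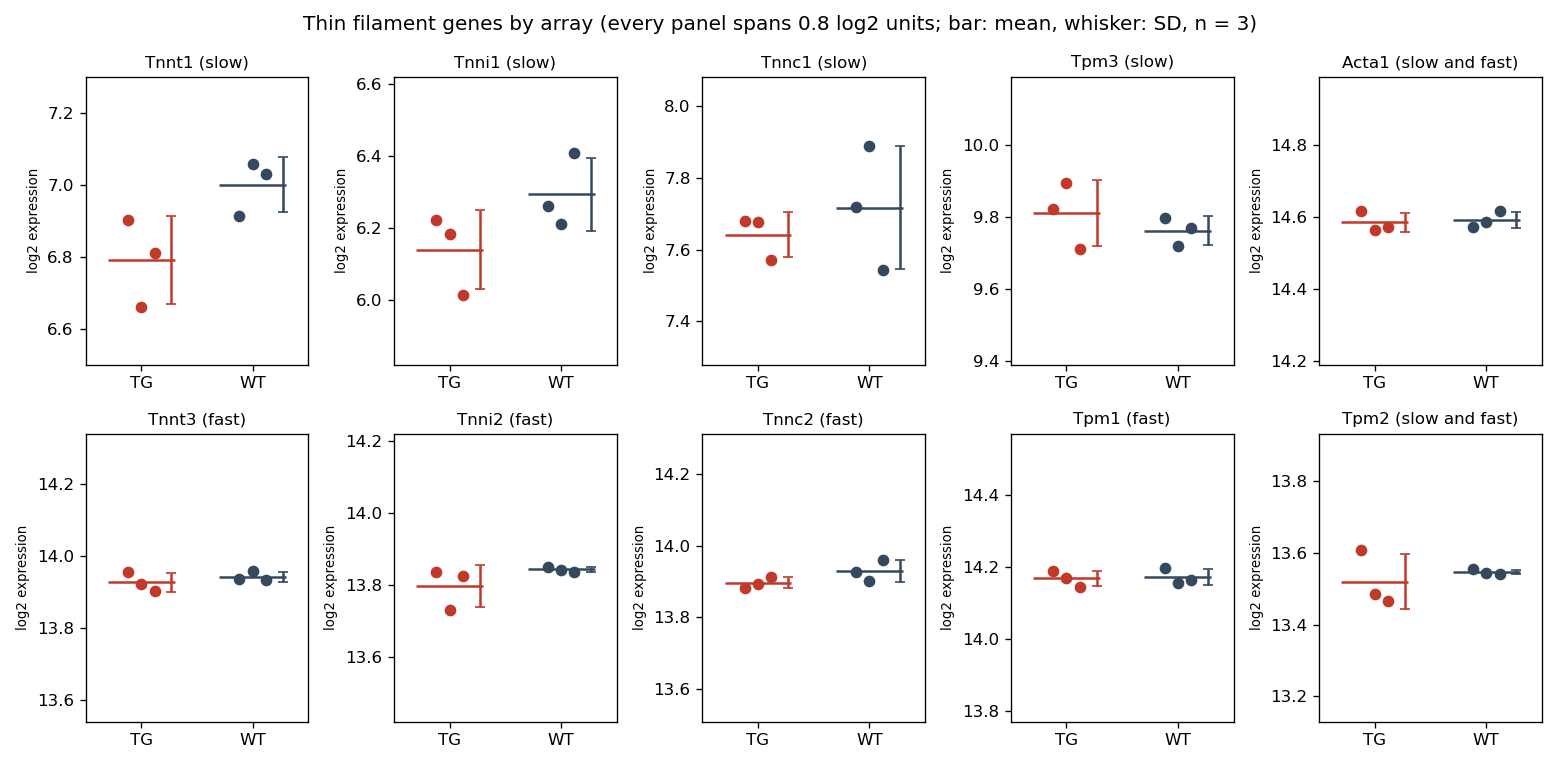
Log2 expression of the 10 genes on each array, with slow forms and Acta1 in the upper row and fast forms and Tpm2 in the lower row; TG arrays are on the left of each panel and WT arrays on the right, bars are means and whiskers SD over 3 arrays, and every panel spans the same number of log2 units. The fast forms and Acta1 differ by hundredths of a unit, and the slow troponins spread more widely, with all TG readings of Tnnt1 below those of WT.

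No tropomyosin gene passed the test between the groups, nor did Acta1, which does not show that their levels are the same. Tpm1, which gives the alpha tropomyosin of fast muscle, read 14.19, 14.17 and 14.15 in TG and 14.20, 14.15 and 14.16 in WT, a difference of -0.0036 (95% interval -0.14 to 0.14). Acta1, the actin of the adult skeletal thin filament, read 14.62, 14.57 and 14.57 in TG and 14.57, 14.59 and 14.62 in WT, a difference of -0.0079 (95% interval -0.15 to 0.13; limma, adjusted p = 0.989). In both genes the groups overlapped, and both read near the top of the scale, where compression was not tested. Tpm2 read 13.61, 13.48 and 13.47 in TG and 13.55, 13.54 and 13.54 in WT. Its WT readings lay between TG array 1 and the other TG arrays, with an SD of 0.077 in TG and 0.0067 in WT (n = 3 each) and a difference of -0.027 (95% interval -0.18 to 0.13), which ranged from -0.071 to -0.00034 without each TG array.

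Tpm3, the alpha tropomyosin of slow muscle, also has cytoplasmic forms made in many cell types, and its 4 probe sets did not have the same sign. The brightest read 9.82, 9.90 and 9.71 in TG and 9.80, 9.72 and 9.77 in WT, a difference of 0.048 (95% interval -0.12 to 0.22; limma, adjusted p = 0.916). It was 0.0057 without TG array 2 and 0.097 without TG array 3. The second gave -0.033, the third 0.031 and the fourth -0.084, and the groups overlapped in all 4. The annotation lists 13 accessions for the first probe set and 3, 8 and 3 for the others, and every one of those is also listed for the first. Which exons or gene copies each probe set reads was not determined here, so muscle and cytoplasmic forms of Tpm3 could not be separated. Whether the brightest probe set, which stands for Tpm3 in the tests and in its pair with Tpm1, reads the Tpm3 gene itself is therefore not known. How far the probe sets of the actin genes, whose coding sequences are alike, read each other was not tested.

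**Figure D2:**
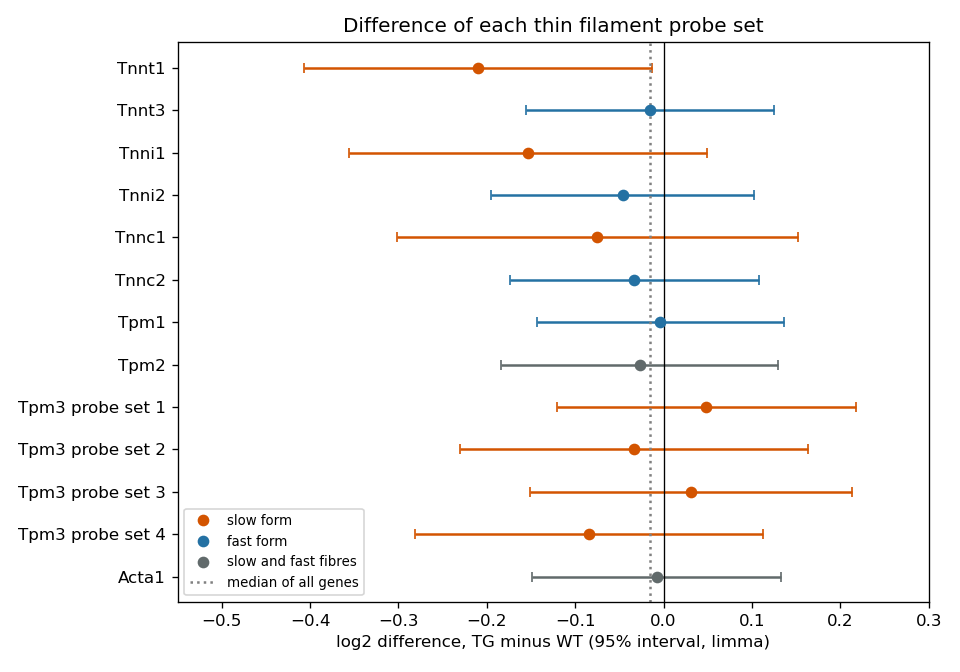
Log2 difference, TG minus WT, for each of the 13 probe sets with its 95% interval from the fit on every probe set; orange marks slow forms, blue fast forms and grey genes of both fibre types, and the dotted line is the median over all genes, -0.016. The interval of Tnnt1 ends just below 0, and the other 12 intervals hold 0.

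Slow and fast forms were then compared within each array, which removes only a shift of the same size in both probe sets. The fast genes varied little over the 6 arrays (SD 0.020 to 0.045), against 0.069 to 0.15 for the slow genes. The pair values therefore largely repeat the slow readings and are not a separate line of evidence. Readings of different probe sets do not give relative amounts of mRNA, so only the change of the slow minus fast difference between groups was used, with each pair centred on its mean over the 6 arrays. For troponin T the centred values of Tnnt1 minus Tnnt3 were -0.015, -0.22 and -0.056 in TG and 0.018, 0.14 and 0.14 in WT. All TG values lay below all WT values, and the difference between groups was -0.19 (95% interval -0.40 to 0.012; two-sided exact permutation test, p = 0.1, adjusted p = 0.4 over 4 pairs). With 3 arrays against 3, 0.1 is the smallest p this test can give, so no pair could have passed.

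For troponin I the centred values of Tnni1 minus Tnni2 were -0.0096, 0.056 and -0.21 in TG and 0.013, -0.026 and 0.17 in WT. The groups overlapped, with a difference of -0.11 (95% interval -0.39 to 0.17; exact permutation test, adjusted p = 0.667). As said above, Tnni1 read near the array medians. For troponin C the centred values of Tnnc1 minus Tnnc2 were 0.030, 0.016 and -0.11 in TG and 0.026, 0.22 and -0.18 in WT. The WT arrays alone spanned the TG range, and the difference was -0.042 (95% interval -0.39 to 0.30; exact permutation test, adjusted p = 0.9). It turned to 0.0019 without TG array 3 and to 0.057 without WT array 2.

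For tropomyosin the centred values of Tpm3 minus Tpm1 were 0.019, 0.11 and -0.050 in TG and -0.015, -0.052 and -0.011 in WT. The difference was 0.052 (95% interval -0.081 to 0.18; exact permutation test, adjusted p = 0.667), and it took the opposite sign, -0.0061, when the 4 Tpm3 probe sets were averaged. The slow side was therefore lower in TG in 3 of the 4 pairs by the group means, and non-overlapping in troponin T alone. The intervals of troponin I and troponin C both reach -0.39, so similarity of the groups is not shown there.

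**Figure D3:**
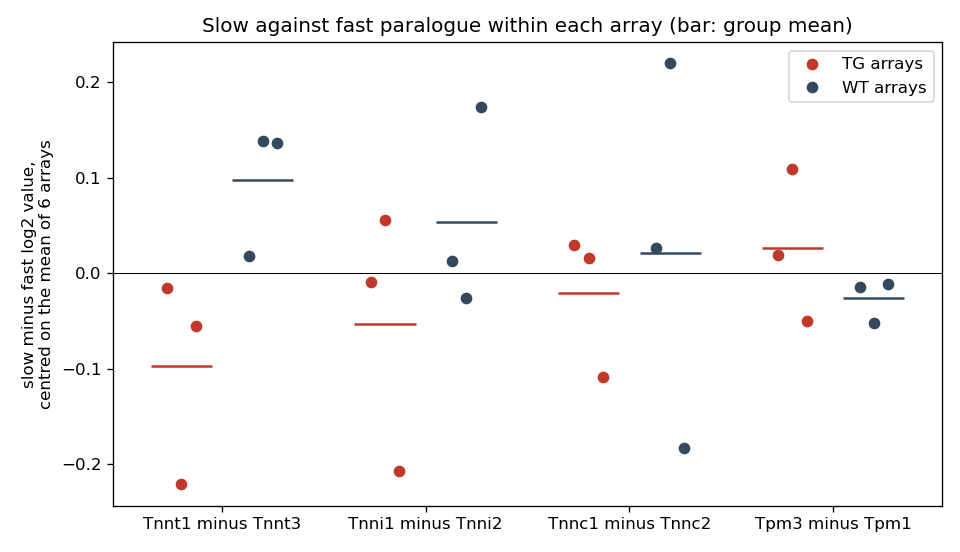
Slow minus fast log2 value of the 4 paralogue pairs within each array, centred on the mean of the 6 arrays, with TG points to the left of WT points and bars at group means. The groups are apart for Tnnt1 minus Tnnt3 and overlap in the other 3 pairs.

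By a fixed measure, the root mean square difference between profiles centred on their own mean over the 6 arrays, the genes most like Tnnt1, the member that varied most, were Tnfrsf11b at 0.023, Lgr5 at 0.030, and Ptgr1, Onecut1 and Zfp772 at 0.037 to 0.038. The levels of these 5 genes lay at percentiles 16.2 to 47.8 of all genes, against 57.1 for Tnnt1, and whether they are expressed in this muscle was not tested. In all, 27 genes lay within 0.05 of Tnnt1, and the median over all genes was 0.17. None of the other 9 genes examined was among them: the closest was Tnni2 at 0.10, and Tnni1 stood at 0.12. Of the slow fibre genes listed, the myosin gene Myh7b was the closest at 0.076, while Myl2 and Myl3, the myosin light chain genes of slow and ventricular muscle, stood at 0.37 and 0.43. These are descriptions of 6 readings per gene.

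Other genes of the thin filament, such as its caps, its length regulators and other actins, were counted from a list of 32 genes, 31 of them measured. None passed in either direction, 14 of the 31 lay above 0 and the median was -0.011. Tnni3, cardiac troponin I, which lies next to Tnnt1 on chromosome 7 in the RefSeq gene order, read 5.53, 5.65 and 5.77 in TG and 5.70, 6.06 and 6.15 in WT. The groups overlapped, and the difference was -0.32 (SE 0.13; limma, unadjusted p = 0.0374, adjusted p = 0.738). Tmod3, a cap of the pointed end, differed by 0.13, the leiomodin gene Lmod2, which acts in thin filament assembly, by 0.19, and cytoplasmic actin Actb by -0.13. Lmod2 was at 0.044 without WT array 1, and Actb at -0.061 without TG array 3 and -0.19 without TG array 2. Nebulin, Neb, the giant protein that runs along the thin filament, differed by -0.014.

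Cardiac actin, Actc1, which skeletal muscle makes before birth, had an SD of 0.66 in TG and 0.41 in WT, against 0.027 and 0.022 for Acta1 (n = 3 each). It read 12.91, 12.26 and 11.60 in TG and 12.51, 11.81 and 12.54 in WT, so the arrays of each group lay far apart, and the difference was -0.028 (SE 0.33; limma, unadjusted p = 0.935), with a range of -0.36 to 0.30 when each array was left out. The fast genes Tnni2 and Tnnt3 also lie close to each other on chromosome 7, with Lsp1 between them, which differed by -0.019. Cardiac troponin T, Tnnt2, which lies near Tnni1 on chromosome 1, had log2 levels of 7.02 ± 0.12 in TG muscle and 7.10 ± 0.02 in WT muscle (SD over 3 arrays each). The actin-binding repeat protein gene Xirp1 had the highest difference on this list, 0.51, with readings of 11.02, 11.66 and 10.11 in TG and 9.85, 10.41 and 10.99 in WT that overlapped widely (SE 0.41), and it was 0.15 without TG array 2.

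The slow fibre list held 16 measured genes, of which none passed, 7 lay above 0 and the median was -0.0046. Its members did not move one way. Mybpc1, slow myosin-binding protein C, read 13.34, 13.32 and 13.34 in TG and 13.06, 13.06 and 13.11 in WT, with the groups well apart and a difference of 0.26 (SE 0.06; limma, unadjusted p = 0.0030, adjusted p = 0.627). Mybpc1 lay at percentile 99.7 of gene levels and Myh7 at percentile 47.5. How far Mybpc1 reads slow fibres in this muscle was not tested. Myoz2, the calsarcin of slow and cardiac fibres, read 9.30, 9.24 and 9.13 in TG and 9.52, 9.48 and 10.23 in WT, with the groups apart in the opposite direction, a difference of -0.52 (SE 0.19; limma, adjusted p = 0.725). Without WT array 3 that difference was -0.28. Myh7b and the calcium pump inhibitor gene Pln differed by -0.20 and 0.21, and the slow myosin gene Myh7 by -0.030, a value whose sign turned with the array left out. Group means of Myh7b, Pln and Myh7 were 6.21 to 6.62, near the array medians, which limits what they show.

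The fast fibre list held 18 measured genes, of which none passed, 4 lay above 0 and the median was -0.019. Mylk2, the skeletal myosin light chain kinase, read 12.73, 12.81 and 12.96 in TG and 13.04, 13.08 and 13.03 in WT, a difference of -0.22 (SE 0.08; limma, adjusted p = 0.719) with the groups apart. Myh2, the IIa myosin, differed by -0.30, with TG readings of 11.85, 11.91 and 11.86 below the WT readings of 12.01, 11.97 and 12.52, and by -0.12 without WT array 3. Myh1, the IIx myosin, and the AMP deaminase gene Ampd1 differed by 0.060 and -0.074, and Myh4, the IIb myosin, by 0.033. Ampd1 was at -0.12 without TG array 1 and -0.029 without TG array 2.

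Regulators of fibre type were 27 measured genes, of which none passed, 13 lay above 0 and the median was -0.0064. Tbx15, a transcription factor of glycolytic fibres, differed by -0.18 and the actin gene regulator Srf by -0.10, both with TG readings below WT readings on every array. The myogenic factor gene Myod1 differed by -0.48 (SE 0.17; limma, adjusted p = 0.710). The coactivator gene Ppargc1a, known to raise oxidative fibre genes, differed by 0.46 (SE 0.24) in its brighter probe set and by 0.68 in the other. For the brighter probe set TG array 2 read 10.41 and the other arrays 9.15 to 9.55, and the difference was 0.16 without TG array 2. The other probe set read 9.39, 10.22 and 9.25 in TG and 8.77, 8.84 and 9.20 in WT. Its groups did not overlap (limma on every probe set, adjusted p = 0.728).

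The developmental sarcomere list had 12 measured genes, none passed, 3 lay above 0 and the median was -0.11. Nppb, a natriuretic peptide gene, differed by -0.26 (SE 0.08; limma, adjusted p = 0.710), the embryonic acetylcholine receptor subunit gene Chrng by -0.26 and the embryonic myosin light chain gene Myl4 by -0.16, besides Tnni3. Chrng was at -0.15 without TG array 1. Mean levels in TG and WT were 5.32 and 5.58 for Nppb, 5.79 and 6.05 for Chrng, and 8.34 and 8.50 for Myl4. Group means of Myh3, Myh6, Tnni3 and Nppa were 5.65 to 6.12. All of these but Myl4 lay near or below the array medians, which limits what the list median shows. Ankrd1, a stretch-responsive titin partner, had the highest value, 0.87 (SE 0.50; limma, unadjusted p = 0.122), with a range of 0.47 to 1.38 when each array was left out.

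**Figure D4:**
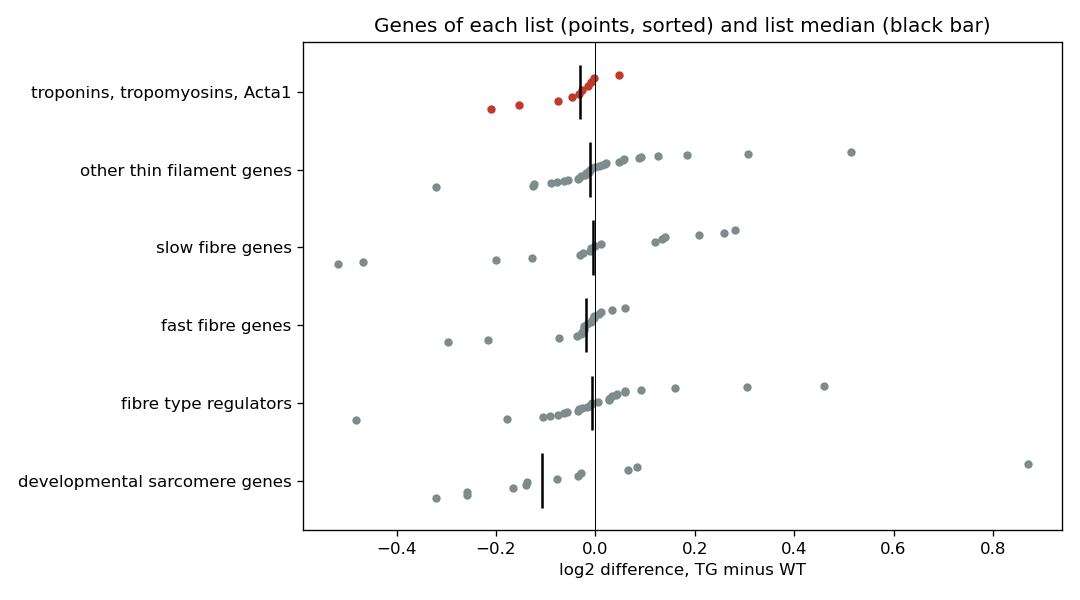
Log2 difference, TG minus WT, of every measured gene in 6 lists, sorted within each list, with a black bar at the list median. The troponin, tropomyosin and Acta1 values run from -0.21 to 0.048, and the medians of 5 of the lists lie within 0.03 of 0, that of the developmental list at -0.11. Several genes of the developmental list read near or below the array medians.

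Markers of other cells were read beside Tnnt1 and Tnni3. Of 10 cardiac markers 3 lay above 0 (Tnni3 and Tnnt2 are in this list). Their summed level was 9.79 to 9.87 in TG and 9.90 to 9.99 in WT, so that the groups did not overlap. Of all genes taken singly, 12.3% had groups that did not overlap, in either direction, and no such share was computed for summed lists. The brightest cardiac marker was Myl4, also in the developmental list, at 8.34 in TG and 8.50 in WT. Myh6, Nppa, Nppb, Tnni3, Ryr2 and Myl7 had group means of 5.29 to 6.12, near or below the array medians. Smooth muscle and pericyte markers, cells that also make tropomyosins, had 4 of 12 values above 0 and a summed level of 13.64 to 13.67 in TG and 13.64 to 13.74 in WT. Liver transcripts had 0 of 9 values above 0, with 9.30 to 11.83 in TG and 10.64 to 11.44 in WT. Bone and osteoclast transcripts had 8 of 9 above 0, with 9.45 to 10.43 in TG and 9.30 to 9.61 in WT. Macrophage markers had 7 of 7 above 0, with 9.58 to 9.92 in TG and 9.43 to 9.73 in WT, and adipocyte markers 6 of 6, with 11.13 to 11.30 in TG and 11.00 to 11.16 in WT. Satellite cell markers had 2 of 8 above 0, with 10.73 to 10.84 in TG and 10.92 to 11.02 in WT, again without overlap. Myod1, named above as a regulator, is in this list and had its lowest value, -0.48, while the list median was -0.038. Tendon markers had 1 of 6 above 0, with 11.15 to 11.26 in TG and 11.03 to 11.43 in WT. Fibroblast markers had 5 of 7, with 13.28 to 13.53 in TG and 13.24 to 13.36 in WT. Their part in the Tnnt1 and Tnni3 values was not tested.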

How the data were processed

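Log2 expression values of 35557 probe sets on 6 arrays stand in the table the authors deposited. That they are log2 was taken from their span, 1.41 to 15.1. Their summarization and normalization are not stated there, nor in the labels. Per the labels' protocols, RNA was extracted with Trizol and RNeasy columns. No other column of per-sample values was present, and the values were used as deposited. Groups came from the labels, and replicates were numbered in deposit order.

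Gene symbols came from the platform annotation: 21789 probe sets had 1 symbol, 1621 several and 12147 none. Each gene was its probe set with the highest mean. TG and WT were compared with limma 3.58.1 in R 4.3.3 (two-sided, Benjamini-Hochberg, threshold 0.05, 95% intervals, SE moderated). Pairs were compared with an exact permutation test, with intervals from the pooled SD. On 20 simulated sets with 200 of 19938 genes changed, the fit recovered 47.0% of changes of 0.5 log2 units, 88.0% of 1 and 98.9% of 2. Changes as small as those of the members were not simulated. Recovery with fewer genes changed, where the adjusted threshold is harder to reach, was not measured either. Figures used matplotlib 3.10.9.

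The members, lists and tests were chosen with earlier results of these data known. Named genes are the 10 members, up to 4 genes per list by smallest p, and the 5 profiles nearest to the most variable member. Neb, Tnnt2, Lsp1, Actc1, Xirp1, Ankrd1, Myh7, Myh4, Myl2 and Myl3 were named after their values were seen. Alternatives were variance trend, robust moderation, array weights, a filter on low levels, probe set summaries, quantile and median scaling, and each array left out. The other Tpm3 probe sets were added as alternatives after seeing the data.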

Additional observations from a re-analysis of the deposited data

How the results depend on the processing

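No alternative called any of the 10 thin filament genes at the adjusted threshold, and the smallest adjusted p of a member over the 14 alternative fits was 0.647. By unadjusted p under 0.05, 1 member (Tnnt1) and 1346 of all genes passed. Without each array in turn the members called stayed at 0 and the genes called were 0 each time. Over all genes, 7 were called with an intensity trend, 2 among genes above the median level, a filter that leaves out Tnni1, and 0 with robust moderation or a common array median, against 1 as reported. Tnnt1 stayed below 0 throughout, from -0.27 to -0.15 without each array. Signs changed in members near 0. With a common array median Tnnt3 was at 0.0039, Tpm1 at 0.016 and Acta1 at 0.012. The mean of its probe sets put Tpm3 at -0.0097. Leaving out arrays gave ranges of -0.16 to 0.011 for Tnnc1, -0.014 to 0.0090 for Tpm1 and -0.024 to 0.0044 for Acta1. The Tnnt1 minus Tnnt3 change ranged from -0.24 to -0.13, Tnni1 minus Tnni2 from -0.16 to -0.030, Tnnc1 minus Tnnc2 from -0.14 to 0.057 and Tpm3 minus Tpm1 from 0.010 to 0.090 without each array. Tpm3 minus Tpm1 was -0.0061 with the mean of probe sets, and -0.030 and -0.081 with Tpm3 probe sets 2 and 4. The cause of these changes was not tested. Of the genes named after their values were seen, Neb turned to 0.0058 and Lsp1 to 0.00049 with a common array median. Without each array Lsp1 ranged from -0.054 to 0.030, Actc1 from -0.36 to 0.30, Myh7 from -0.11 to 0.040, Myh4 from -0.0050 to 0.054 and Myl3 from -0.52 to 0.10. The genes named by rule that are not members kept their sign in all alternatives run for them. No paired analysis was run, since each array is a separate mouse and the labels give no pairing. Signal over background could not be assessed.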
